A study of Homo sapiens and Mus musculus with 7 samples.

Results

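The comparison described here set the HeyA8 array labelled Fas shRNA4 directly against the HeyA8 array labelled FAS shRNA6, without a control in the ratio. These are 2 of the 7 samples of the series, chosen by their titles. HeyA8 is a human ovarian cancer cell line. In each sample the cells carried a stable short hairpin RNA against FAS, the gene of the cell surface receptor Fas (CD95). The third HeyA8 array, from cells with the PLKO control, is given only as a level beside the hairpins, and an array pair from the liver cancer cell line HepG2 (FAS shRNA6 and PLKO) serves as a further setting for the same hairpin. Total RNA was measured on Affymetrix arrays. The labels used here give neither the hairpin sequences, nor the number of clones behind each stable line, nor the time since transduction. Each group held 1 array, so no difference has a replicate check, no test was possible, and genes are counted by size. In a population of cells, fewer cells expressing a gene and less RNA per cell cannot be told apart.

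A hairpin expressed from a vector enters the cell's own microRNA route: it is exported from the nucleus, cut by Dicer and loaded into an Argonaute protein, whose guide strand then selects messages. Hairpins to one gene share that gene as a target, but differ in guide sequence and so can differ in other messages they reach. Fas is a death receptor that can start apoptosis through FADD and caspase-8, and FAS is itself a gene that the tumour suppressor p53 can induce.

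Of 54675 probe sets on the array, 62 were controls, and 13785 of the others had a signal above 400 on at least 1 of the compared arrays. After reduction to 1 probe set a gene, 7521 of 19775 genes passed that minimum. The difference is given throughout as log2 of signal plus a pseudocount of 12.6, shRNA4 minus shRNA6, so that positive values mean higher with shRNA4. Its median over the 7521 genes was 0.02 and its SD over genes 0.28. At least 2-fold differences were found for 52 genes, 0.691% of those kept. Of these, 23 were higher with shRNA4 (0.306%) and 29 higher with shRNA6 (0.386%). Scaling the arrays to equal medians moved this split to 19 and 42. With both arrays above 400 it was 14 and 17, so the rest passed only on the array where they were higher. Among them were CCND2, SULF2, EFEMP1, FEZ1, MFAP2, TNFSF15, EGR1, FOS, EPCAM, ACOX2, TRIM55, FGF2, IGFBP2, KCNJ2 and CENPC. At 1.5-fold the numbers were 172 (2.29%) and 183 (2.43%), together 4.72%. At any size 53.1% of genes were higher with shRNA4 and 46.9% with shRNA6.

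The arrays themselves were alike. The ratio of the 3′ to the 5′ control probe set was 0.933 and 0.955 for GAPDH and 2.17 and 2.13 for ACTB, with shRNA4 and shRNA6 in that order, and 20 spike-in control probe sets differed by between -0.25 and 0.19 on the log2 scale. Genes with a mean signal of at most 400 had an SD of 0.55, and 5.69% of them were at least 2-fold apart. A gene this dim was kept only where 1 array was above 400 and the other below, which widens that spread by selection. For the 121 genes above 20000 the SD was 0.11 and the median 0.10, so that very bright genes lay slightly to the shRNA4 side. PAX8, a transcription factor of Müllerian epithelium, was at 3047 and 3037, and 6 of 8 ovarian carcinoma markers were above 400 on a HeyA8 array. Of these, PAX8, EPCAM, KRT8 and KRT18 were above 400 in HepG2 too, while WT1 and KRT7 were not. The count alone therefore does not tell an ovarian line from a liver line. MUC16 (CA125) was at 4.66 and 3.81 and MSLN, mesothelin, at 91.2 and 155, so these ovarian markers were not seen. All 4 mesenchymal markers were above 400, CDH1 (E-cadherin) was at 13.4 and 2.48, and none of 5 hepatocyte or 3 leukocyte markers reached 400. Of the endothelial markers CDH5 (VE-cadherin) did, at 543 and 677, while PECAM1 was at 94.1 and 97.8.

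**Figure D1:**
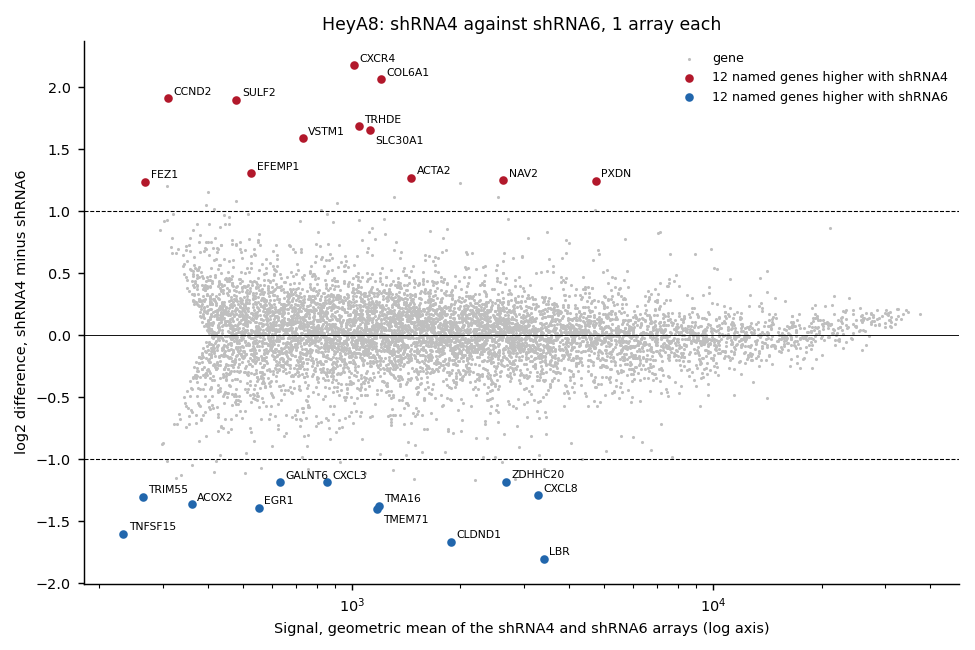
Each grey point is 1 of 7521 genes, with the geometric mean signal of the shRNA4 and shRNA6 arrays on the horizontal log axis and the log2 difference, shRNA4 minus shRNA6, on the vertical axis; dashed lines mark 2-fold. The 12 coloured genes per direction are the largest differences whose other probe sets pointed the same way, from CXCR4 at 2.18 to LBR at -1.81.

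FAS was lower with shRNA6 than with shRNA4 on every probe set above 400. On the brightest FAS probe set the signal was 1184 with shRNA4, 856 with shRNA6 and 2104 in PLKO. The second gave 701, 506 and 1527 in the same order, the third 632, 489 and 1507, and the fourth 458, 215 and 891. Both hairpin arrays thus lay below PLKO throughout, with shRNA6 the lowest. The log2 difference between the hairpins was 0.58 ± 0.31 (SD over 4 probe sets, which are not replicates), from 0.36 to 1.05. The probe set at 1.05 was above 400 with shRNA4 (458) but not with shRNA6 (215), which favours that direction by selection. With both arrays above 400 the mean difference was 0.43. The probe sets at 0.36 and 1.05 were _x_at ones, a class that can also bind related transcripts. With shRNA6 the FAS signal was 67.2% of that with shRNA4 on average, ranging from 47.0% to 77.4%. The 47.0% came from the probe set at 1.05. Set against PLKO, 48.9% ± 6.3 (SD over 4 probe sets) was left with shRNA4 and 32.6% ± 6.8 with shRNA6. In HepG2 the same hairpin shRNA6 left 52.4% ± 6.7, more than in HeyA8. Another FAS probe set was at 3.70, 12.9 and 37.3 and was too dim to use.

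**Figure D2:**
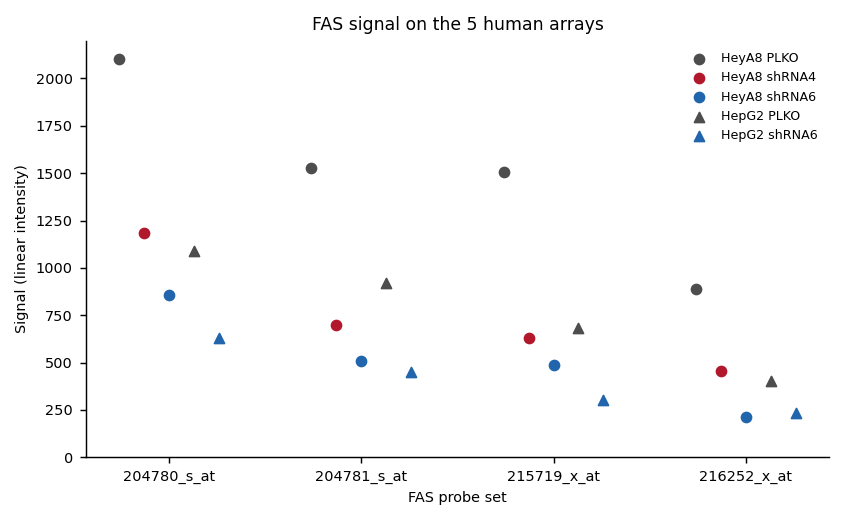
FAS signal on a linear axis for the 4 probe sets above 400, with circles for HeyA8, triangles for HepG2, grey for PLKO, red for shRNA4 and blue for shRNA6. In HeyA8 each probe set falls in the order PLKO, shRNA4, shRNA6, and the most intense one is at 2104, 1184 and 856.

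Partners of Fas in the cell differed little between the hairpins. FADD, its adaptor, was at 2530 with shRNA4 and 2497 with shRNA6, a log2 difference of 0.02 that was -0.04 with arrays scaled to equal medians, and CASP8, the initiator caspase, at 2087 and 2280 (-0.13). Of 21 listed death receptor genes 18 had a probe set of their own and 12 passed the minimum, with a median of 0.10. Above 0 were 8, beside 53.1% of all genes, and below it 4. None was 1.5-fold apart in either direction, which is near the 4.72% of all genes in a list of this size. The TRAIL receptors TNFRSF10B (7554 and 5989) and TNFRSF10D (4990 and 3938) had the largest differences, 0.33 and 0.34. The ligand FASLG was too dim, at 30.4 and 34.8.

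The p53 targets leaned to the shRNA4 side nearly as a whole. Of 30 listed genes 27 had a probe set and 24 passed, of which 23 were above 0, beside 53.1% of all genes. Their median was 0.33, beside 0.02 for all genes, and it was 0.27 with arrays scaled to equal medians and 0.33 after quantile normalization. In size the differences were small: 5 of 24 were at least 1.5-fold higher with shRNA4, where 2.29% of all genes were, and none was 2-fold apart. The list was chosen with earlier results of these data known, and its count is a description.

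CDKN1A, the cyclin-dependent kinase inhibitor p21, was at 6111 with shRNA4, 3787 with shRNA6 and 4690 in PLKO, a log2 difference of 0.69. SESN1, a stress-induced inhibitor of mTORC1 signalling, had the largest difference, 0.93, with signals of 1452, 756 and 1023. In each of these the PLKO level lay between the hairpins. ZMAT3, an RNA-binding zinc finger protein, was at 12616, 7780 and 8227 (0.70). Its 4 other probe sets gave 0.71, 0.62, 0.50 and 0.65. TP53INP1, which promotes p53-dependent death and autophagy, was at 1662 with shRNA4, 1027 with shRNA6 and 1714 in PLKO (0.69). PPM1D, a phosphatase that turns p53 signalling down, was at 2117, 1365 and 1650 (0.63).

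The feedback ubiquitin ligase MDM2 was at 8541 with shRNA4, 6490 with shRNA6 and 6859 in PLKO, a difference of 0.40. Its other probe sets ranged from 0.26 to 0.89. The one at 0.89 was above 400 with shRNA4 (465) but not with shRNA6 (246). GADD45A, a growth arrest gene, was at 0.39, the DNA repair genes DDB2 and XPC at 0.38 and 0.32, CCNG1 (cyclin G1) at 0.35 and the death receptor gene TNFRSF10B at 0.33. BAX, an apoptosis effector, was at 0.17, the kinase gene PLK2 at 0.08, and PMAIP1, which encodes NOXA, was the 1 kept member below 0, at -0.11. GDF15, PLK3 and EDA2R were too dim. Against PLKO, 21 of 24 members were higher with shRNA4 and 8 of 24 higher with shRNA6, beside 56.9% and 55.1% of all genes. These comparisons share the PLKO array. The list medians were 0.26 and -0.08. PLKO lay between the hairpins for 13 of 24 members and for 34.5% of all genes.

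A microRNA gene that p53 induces, MIR34A, had a probe set of its own, annotated to the gene and not a measure of mature microRNA. Its signal was 724 with shRNA4, 511 with shRNA6 and 620 in PLKO, a log2 difference of 0.49, on the same side as the list. MIR34A was added after its value was seen. The mature strand used most often is shown with its seed, bases 2 to 8, in capitals, since the seed is the part that pairs with messages (RefSeq, GRCh38.p14, chr1:9151735-9151756, minus strand).
hsa-miR-34a-5p: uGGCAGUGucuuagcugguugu

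**Figure D3:**
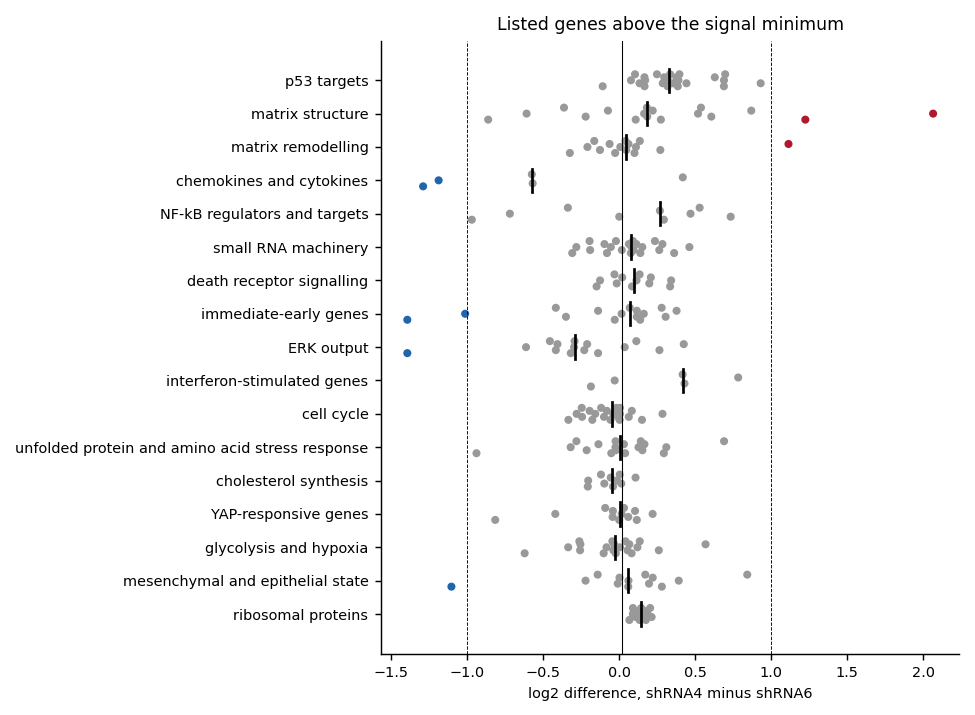
Each point is a listed gene above the signal minimum, placed by its log2 difference, shRNA4 minus shRNA6; black bars are list medians, the thin solid line the median of all 7521 genes and dashed lines 2-fold, with genes past it coloured. The p53 targets lie almost wholly right of the line (median 0.33), the chemokines and cytokines mostly left of it (-0.58), and the small RNA machinery around it (0.08).

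Matrix genes held the largest difference of any listed gene above the signal minimum. COL6A1, a chain of the microfibrillar collagen VI, was at 2480 with shRNA4, 583 with shRNA6 and 858 in PLKO. Its log2 difference was 2.06 or 4.18-fold. Another COL6A1 probe set gave 2.10, at 472 with shRNA4 and 100 with shRNA6. COL4A1, a chain of the basement membrane collagen IV, was at 3059, 1302 and 2063 (1.22). Another COL4A1 probe set gave 1.40, at 613 with shRNA4 and 225 with shRNA6. Both other probe sets were thus above 400 with shRNA4 but not with shRNA6. COL4A2, the partner chain of COL4A1, was at 2495, 1716 and 1829 (0.54). For all of these shRNA4 was highest, PLKO between and shRNA6 lowest.

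COL4A1 and COL4A2 start back to back on chromosome 13, and the 126 bases between their starts, the whole of that shared promoter interval, are printed because both genes lay on the same side (RefSeq, GRCh38.p14, chr13:110307158-110307283, minus strand, read toward COL4A1). The AP-1 site TGANTCA, searched on both strands, is not in the 250 bases before COL4A1 or before either start of SERPINE2, and 6.57% of 35116 promoter windows of that length hold it.
COL4A1-COL4A2 interval: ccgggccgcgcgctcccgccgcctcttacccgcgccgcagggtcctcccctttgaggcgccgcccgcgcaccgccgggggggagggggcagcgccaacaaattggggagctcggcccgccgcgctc

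FN1, fibronectin, was among the brightest genes, at 28602 with shRNA4, 15664 with shRNA6 and 23546 in PLKO (0.87). It was 0.78 after quantile normalization, and its 5 other probe sets above 400 gave between 0.73 and 1.76. Those at 1.37 and 1.76 were above 400 with shRNA4 but not with shRNA6. LAMC1, a laminin chain, was at 6906, 4820 and 5731 (0.52), and FBN1, fibrillin, at 1052, 687 and 1196 (0.61). Other matrix genes went the other way. COL12A1, a fibril-associated collagen, was at 1062 with shRNA4, 1941 with shRNA6 and 1212 in PLKO (-0.86). The proteoglycan VCAN was at 833, 1277 and 1489 (-0.61), with its other probe sets between -1.04 and -0.48. The VCAN probe sets at both ends of that range were above 400 with shRNA6 but not with shRNA4. TNC, tenascin C, was at -0.36.

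Of 35 listed matrix structure genes 33 had a probe set and 17 passed, with a median of 0.18. Higher with shRNA4 were 12 of 17, beside 53.1% of all genes, among them 2 by 2-fold (0.306% of all genes) and 4 by 1.5-fold (2.29%). With shRNA6, 2 of 17 were 1.5-fold higher, beside 2.43% of all genes. The fibrillar collagens COL1A1 (73.5 and 79.9) and COL1A2 (48.4 and 2.24) were too dim in these cells. Thrombospondin THBS1 was just under the minimum, at 397 and 307.

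Genes that remodel the matrix were mostly level. Of 24 listed, 15 passed, with a median of 0.04 that turned to -0.02 with arrays scaled to equal medians. SERPINE2, an inhibitor of thrombin and plasminogen activators, was the 1 member past 1.5-fold, at 3745 with shRNA4, 1725 with shRNA6 and 2078 in PLKO (1.11). The urokinase PLAU (17319 and 16053), its receptor PLAUR (6663 and 6067) and the inhibitor TIMP1 (2707 and 2759) differed by at most 0.13. Further matrix genes lay outside the lists. PXDN, peroxidasin, which crosslinks collagen IV, was at 7303, 3069 and 4593 (1.25), with another probe set at 1.32. SULF2, which removes sulfate from extracellular heparan sulfate, was at 944, 244 and 379 (1.90), and EFEMP1, fibulin-3, at 838, 331 and 484 (1.31).

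Chemokines were higher with shRNA6. CXCL8, the neutrophil attractant interleukin-8, was at 2093 with shRNA4, 5140 with shRNA6 and 2763 in PLKO, a log2 difference of -1.29. Its brighter _x_at probe set, a class that can also bind related transcripts, gave 5583, 11131 and 7785 (-0.99), just short of 2-fold. CXCL3 was at 562, 1298 and 626 (-1.19), and CXCL1 at 7566, 11238 and 6482 (-0.57). For all of these shRNA6 was the highest HeyA8 array and PLKO was nearer to shRNA4. CXCL2 was too dim on its representative probe set (138 and 195), but its _x_at probe set gave 3780 with shRNA4, 6811 with shRNA6 and 4722 in PLKO (-0.85). CXCL1, CXCL2 and CXCL3 are near-identical in sequence, and signal may be shared between their probe sets.

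The cytokine IL1B was at 3694 with shRNA4, 5511 with shRNA6 and 6835 in PLKO (-0.58), while IL1A was at 8737, 6538 and 9790 (0.42). For both, PLKO was the highest array. Of 28 listed chemokines and cytokines 27 had a probe set but only these 5 passed the minimum (CXCL8, CXCL3, CXCL1, IL1B and IL1A), 4 of them below 0, beside 46.9% of all genes, and 2 at least 2-fold higher with shRNA6, beside 0.386%. The median of the 5 was -0.58. CCL20 (9.27 and 35.6), IL6 (135 and 122) and CXCL10 (39.1 and 7.08) were too dim. NF-kB is a known activator of these chemokine genes, and stretches of 150 bases before the start of CXCL8 and CXCL3 are printed because the 2 genes had the largest differences of the list. Capitals mark the NF-kB site GGAATTTCC, which was searched on both strands. It begins 91 bases before the start in CXCL8 and 78 before it in CXCL3, occurs once before CXCL1 and CXCL2 too, and is held by 0.413% of 35116 windows of 250 bases. The CXCL8 stretch also holds 1 AP-1 site TGANTCA, left in lower case, which 6.57% of windows hold. Both stretches are from RefSeq, GRCh38.p14, at chr4:73740419-73740568, plus strand, and chr4:74038690-74038839, minus strand.
CXCL8: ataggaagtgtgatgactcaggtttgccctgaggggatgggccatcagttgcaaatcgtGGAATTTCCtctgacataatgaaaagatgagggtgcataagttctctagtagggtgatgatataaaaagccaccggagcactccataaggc
CXCL3: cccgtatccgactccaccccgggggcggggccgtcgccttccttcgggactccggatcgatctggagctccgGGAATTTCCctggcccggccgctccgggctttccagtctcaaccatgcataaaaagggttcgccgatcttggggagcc

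Genes of the NF-kB system itself went both ways. NFKBIA, the inhibitor that NF-kB induces, was at 3019 with shRNA4, 2089 with shRNA6 and 2627 in PLKO (0.53), and the subunits REL (621, 369 and 517) and RELA (1696, 1222 and 1462) were at 0.73 and 0.47. BCL2A1, a survival gene of the BCL2 family, was at 2363 with shRNA4, 4641 with shRNA6 and 3508 in PLKO (-0.97). NFKBIZ, an atypical nuclear inhibitor, was at 1821, 3007 and 2821 (-0.72). Of 19 listed genes 9 passed, 5 above 0 and 4 below, and of the 3 past 1.5-fold REL was higher with shRNA4 and BCL2A1 and NFKBIZ with shRNA6. Their median was 0.27, but -0.00 with a minimum of 800. TNFAIP3, a feedback enzyme of the pathway, was just under the minimum at 384 and 378.

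CXCR4, the receptor of the chemokine CXCL12, had the largest difference of all 7521 genes. Its signal was 2176 with shRNA4, 472 with shRNA6 and 1613 in PLKO, a log2 difference of 2.18 or 4.52-fold. The other probe sets gave 750, 213 and 730 (1.75) and, for the _x_at one, 590, 237 and 461 (1.27). On all 3 the shRNA6 array was the lowest and PLKO was nearer to shRNA4. CXCL12 itself was too dim, at 11.0 and 72.3. TNFSF15, a cytokine of the TNF family whose receptor is a death receptor, was at 130 with shRNA4, 419 with shRNA6 and 152 in PLKO (-1.60). It passed the minimum on the shRNA6 array alone.

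Small RNA machinery showed no difference of 1.5-fold in any kept gene, beside 4.72% of all genes. In a list of this size, none is near that share. Of 27 listed genes 26 had a probe set and 22 passed, 14 above 0 (beside 53.1% of all genes) and 8 below. They ran from -0.31 to 0.46, with a median of 0.08 that was 0.02 with arrays scaled to equal medians. DROSHA, which cuts primary microRNA transcripts, was at 3311 with shRNA4, 3063 with shRNA6 and 3167 in PLKO (0.11). XPO5, which exports hairpins from the nucleus, was at 2414, 1981 and 1675 (0.28). DICER1 was at 2162, 2051 and 1644 (0.08), with other probe sets at 0.41 and 0.27, and its PLKO signal was the lowest of the HeyA8 arrays on all 3.

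Argonaute genes went both ways. AGO2, the member that can cut its target, was at 2064 with shRNA4, 2561 with shRNA6 and 2724 in PLKO (-0.31), AGO4 at 491, 600 and 646 (-0.28) and AGO1 at 700, 593 and 581 (0.23). The Argonaute partners TNRC6A and TNRC6B, which recruit deadenylases, had the largest differences to the shRNA4 side. TNRC6A was at 3139, 2277 and 2012 (0.46), with other probe sets at 0.54 and 0.34. TNRC6B was at 1057, 820 and 1030 (0.36), with 4 others between 0.34 and 0.63. Those at 0.55 and 0.63 were above 400 with shRNA4 but not with shRNA6. The Dicer partners TARBP2 (0.15) and PRKRA (0.09) and the hairpin cofactors DDX5 (0.09) and DDX17 (0.26) lay near the median of all genes or above it.

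The 1 PLKO array gives a level beside the hairpins for the 52 genes past 2-fold. Among the 29 higher with shRNA6, PLKO lay between the hairpins for 21, above both for 7 and below both for 1. PLKO lay between for 34.5% of all genes, but the 52 were picked for a wide gap, within which PLKO falls more easily. It was within 1.25-fold of shRNA6 for 12 and of shRNA4 for 6. Of the others, further than 1.25-fold from both, 9 had PLKO between the hairpins and 2 above both. The genes named from these classes beside the 12 largest per direction were chosen after their values were seen. In the class of 12, shRNA4 was low alone: CLDND1, a claudin domain protein, was at 1052 with shRNA4, 3370 with shRNA6 and 3363 in PLKO (-1.67). ZDHHC20, a palmitoyltransferase, was at 1772, 4033 and 4153 (-1.18), TMEM30A, a subunit of lipid flippases, at 1894, 4255 and 4589 (-1.16) and the anthrax toxin receptor ANTXR2 at 1831, 3731 and 4017 (-1.02). The muscle ubiquitin ligase TRIM55 was at 164, 425 and 413 (-1.31). TMEM30A had probe sets at -1.29 and 0.15 besides, and FGF2, a fibroblast growth factor of this class at -1.07, had another at 0.10.

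LBR, the lamin B receptor of the inner nuclear membrane, had the lowest difference of all, -1.81. It was at 1815 with shRNA4, 6374 with shRNA6 and 4991 in PLKO, so PLKO lay nearer to shRNA6. TMEM71 (721, 1927 and 1427) and TMA16 (734, 1928 and 1387) had the same order, at -1.40 and -1.38, as did ACOX2, a peroxisomal oxidase (221, 589 and 317, -1.37), though its PLKO signal was nearer to shRNA4. In the class of 6, shRNA6 was high alone. Beside CXCL3 and TNFSF15 it held GALNT6, which starts O-glycosylation (417, 966 and 465, -1.19), SPP1, the secreted glycoprotein osteopontin (1460, 3306 and 1353, -1.17), IGFBP2, an insulin-like growth factor carrier (-1.11), and the potassium channel KCNJ2 (-1.15). GALNT6 gave -0.62 after quantile normalization, and its other probe set -0.61.

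The 2 genes with PLKO above both hairpins by more than 1.25-fold were EGR1 and FOS. EGR1, a zinc finger factor of the immediate-early response, was at 337 with shRNA4, 906 with shRNA6 and 2661 in PLKO (-1.39), and the AP-1 subunit FOS at 214, 445 and 1214 (-1.01). Both hairpins were below the control, shRNA4 further, and both genes passed the minimum with shRNA6 but not with shRNA4. Of 15 kept immediate-early genes no other was 1.5-fold apart, beside 4.72% of all genes, and the median was 0.07. The list of ERK output genes, which includes EGR1, had 11 of 15 members below 0, beside 46.9% of all genes, and a median of -0.29. In it SPRY4, a feedback inhibitor, was at -0.61, EPHA4 at -0.46 and the cyclin gene CCND1 at 0.42. EGR1 is induced through serum response factor at CArG boxes, and the 150 bases before its start are shown because it was the immediate-early gene with the largest difference, with its 2 CArG boxes in capitals (RefSeq, GRCh38.p14, chr5:138465329-138465478, plus strand). They begin 105 and 83 bases before the start, and 1.16% of 35116 windows of 250 bases hold a CArG box.
EGR1: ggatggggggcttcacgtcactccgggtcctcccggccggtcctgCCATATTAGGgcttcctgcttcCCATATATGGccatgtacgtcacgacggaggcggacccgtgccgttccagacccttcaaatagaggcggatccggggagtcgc

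Among the 23 genes higher with shRNA4, PLKO lay between the hairpins for 18, below both for 4 and above both for 1. Over all genes, not picked for a wide gap, it lay between for 34.5%. It was within 1.25-fold of shRNA6 for 7 and of shRNA4 for 3, and for the other 13 it lay between, further than 1.25-fold from both. In the class of 7, shRNA4 was high alone. It held SLC30A1, a zinc exporter, at 2009 with shRNA4, 628 with shRNA6 and 535 in PLKO (1.66), VSTM1, a receptor of the immunoglobulin family, at 1284, 418 and 397 (1.59), and ACTA2, smooth muscle actin, at 2281, 940 and 997 (1.27). The gene spans of ACTA2 (chr10:88935074-88991337) and FAS (chr10:88964050-89017059) overlap in RefSeq on GRCh38.p14. MFAP2, a microfibril protein, was in the class too (705, 326 and 317, 1.08), as were SERPINE2, H2BC12L and SHISA9.

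In the class of 3, shRNA6 was low alone. TRHDE, a peptidase that degrades thyrotropin-releasing hormone, was at 1890 with shRNA4, 580 with shRNA6 and 1680 in PLKO (1.68), TMEM158 at 6702, 3331 and 7452 (1.01) and C2CD2 at 1935, 887 and 1547 (1.11). CCND2, the cell cycle gene of cyclin D2, had PLKO between the hairpins, with 618, 155 and 399 (1.91). NAV2 (4064, 1701 and 2641, 1.25) and FEZ1, a kinesin adaptor (421, 171 and 218, 1.24), had the same order. Of the 52 genes 12 had another probe set above 400, 13 in all, with _x_at probe sets such as those of CXCL8 and CXCR4 left out. Of these 13, 11 pointed the same way, each by at least 1.5-fold. Those of COL4A1, COL6A1, CXCR4, GXYLT1 and SYTL2 were above 400 only on the array where they were higher. That selection favours the same direction, so the count is a description.

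**Figure D4:**
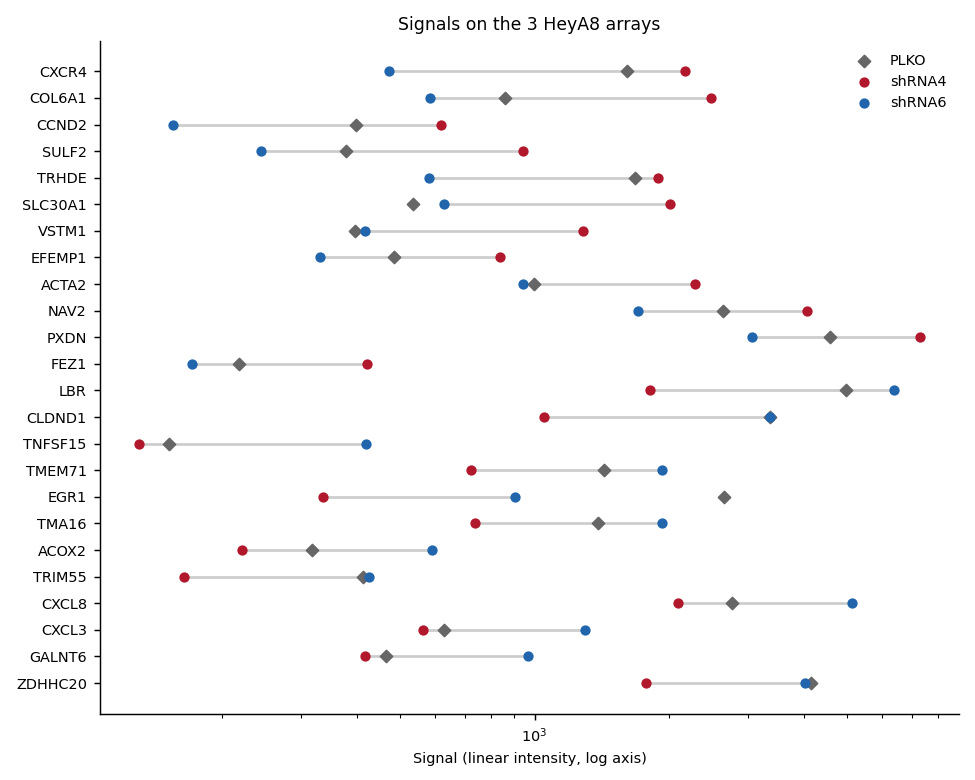
Signal of the 12 named genes per direction on a log axis, with red circles for shRNA4, blue circles for shRNA6 and grey diamonds for PLKO; the grey bar joins the hairpins. PLKO coincides with shRNA6 for CLDND1 (3363 and 3370), lies near shRNA4 for TRHDE (1680 and 1890) and lies above both for EGR1 (2661).

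The hairpin shRNA6 was also used in HepG2, on arrays that share no sample with the HeyA8 pair. Of the 7521 genes 6485 were above 400 on at least 1 HepG2 array. Across them the HeyA8 difference and the HepG2 log2 difference, shRNA6 minus PLKO, had a Pearson correlation of -0.15 and a Spearman correlation of -0.16. Without the signal minimum the Pearson correlation was -0.05. A negative value means that genes lower with shRNA6 than shRNA4 in HeyA8 tended to be lower with shRNA6 in HepG2. These are correlations across genes, which are not independent. Of 104 genes at least 1.5-fold higher with shRNA4 in HeyA8, 70 (67.3%) were below 0 in HepG2, beside 44.9% of 118 genes higher with shRNA6 and 54.5% of all 6485. At 2-fold, 8 of 9 genes higher with shRNA4 (88.9%) and 10 of 16 higher with shRNA6 (62.5%) were below 0, so both directions then lay above the share of all genes.

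Most lists leaned below 0 in HepG2, where 54.5% of all 6485 genes were below 0. Among them were 14 of 14 ribosomal genes (median -0.14), 16 of 18 glycolysis and hypoxia genes (-0.15) and 11 of 12 immediate-early genes (-0.28). In contrast, 8 of 9 cholesterol synthesis genes were above 0 (0.21). Of 23 p53 targets measured in HepG2 18 were below 0, with a median of -0.09 beside -0.02 for all genes, and CDKN1A was at 1262 with shRNA6 and 1901 in PLKO (-0.59). All 8 matrix structure genes measured there were below 0, with a median of -0.35, although FN1 was level at 25455 and 26004. The collagens with the largest HeyA8 differences to the shRNA4 side were too dim in HepG2 to be among the 8. COL6A1 was at 162 with shRNA6 and 116 in PLKO, COL4A1 at 25.9 and 7.54, and COL4A2 at 60.4 and 14.2. SERPINE2 was at 1758 and 4445 (-1.33) and SULF2 at 1857 and 2951 (-0.66). None of the 5 chemokines and cytokines kept in HeyA8 reached 400 in HepG2 on its representative probe set, and CXCL8 was at 91.8 with shRNA6 and 167 in PLKO. The _x_at probe set of CXCL8 was at 313 with shRNA6 and 821 in PLKO, so shRNA6 was the lower array there and the higher one in HeyA8. CCL20, too dim in HeyA8, was at 12634 and 11648. Genes low with shRNA4 alone in HeyA8 were at different places in HepG2, where shRNA4 was not analysed here: CLDND1 was at -0.02 and ZDHHC20 at 0.00, but CFDP1 at 0.28 and the centromere gene CENPC at -0.69.

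**Figure D5:**
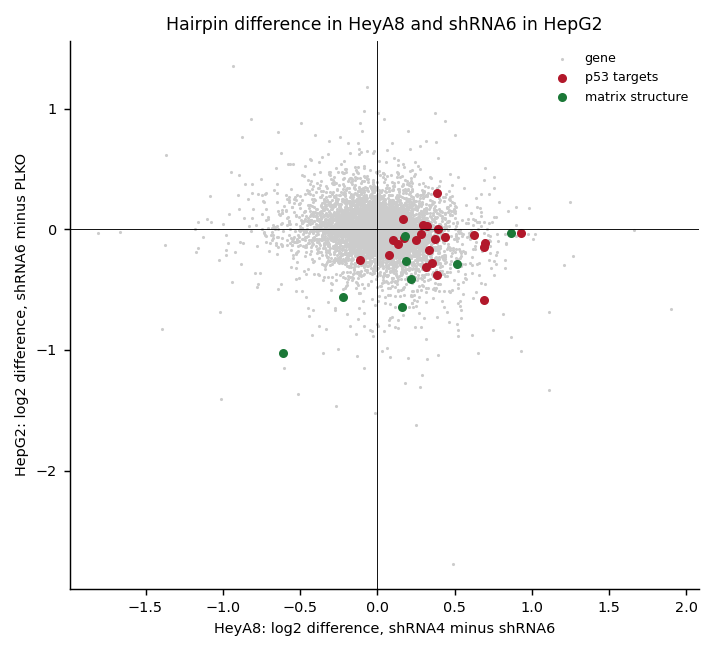
Each grey point is 1 of 6485 genes, with the HeyA8 log2 difference, shRNA4 minus shRNA6, on the horizontal axis and the HepG2 log2 difference, shRNA6 minus PLKO, on the vertical axis. Of 23 p53 targets (red) 18 lie below 0 in HepG2, as do all 8 matrix structure genes (green), beside 54.5% of all 6485 genes.

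Cell cycle genes had a median of -0.05, with 22 kept members from CCNE1 (-0.33) to MKI67 (0.28). None was 1.5-fold apart, beside 4.72% of all genes. The 10 kept cholesterol synthesis genes lay between -0.21 and 0.11 (median -0.05). Stress response genes had a median of 0.00, with SLC7A11, the cystine importer, at 1130 with shRNA4, 2178 with shRNA6 and 2190 in PLKO (-0.94), and the transcription factor ATF5 at 0.69. Of YAP-responsive genes F3, tissue factor, was at 4204, 7413 and 5132 (-0.82), and of glycolysis and hypoxia genes the mTORC1 inhibitor DDIT4 was at -0.62. Their medians were 0.01 and -0.03.

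Of the state markers EPCAM, an epithelial adhesion protein, was at 281 with shRNA4, 619 with shRNA6 and 405 in PLKO (-1.10). It passed the minimum with shRNA6 but not with shRNA4. SNAI2, a mesenchymal transcription factor, was at 2210, 1228 and 1911 (0.84). Besides EPCAM and SNAI2, the members of that list above the signal minimum lay between -0.22 and 0.39. Only 5 of 25 interferon-stimulated genes passed, 3 above 0 and 2 below. Their median was 0.42, and 0.20 with a minimum of 800, with IFI44 at 0.78 the largest. Ribosomal protein genes, taken as a reference, were above 0 in 14 of 14 members with a median of 0.14, and 0.02 after quantile normalization.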

How the data were processed

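Total RNA from each sample was hybridised to 1 array. The deposited values are intensities on a linear scale, computed with MAS5 per the submitters' processing notes, which name no version in what was used here. The 2% trimmed mean was 499.9 on each human array, as the deposited intensity values show. Probe sets with 1 gene symbol in the platform annotation were used, a gene being its brightest probe set over the 5 human arrays, with _x_at only where no other existed. Genes above 400 on at least 1 compared array were kept, and log2(intensity + 12.6) was subtracted, the pseudocount being the 25th percentile of the table. The number of arrays limits the precision. The 12 genes per direction with the largest difference, whose other probe sets pointed the same way, were named, with list members. The members and lists were chosen with earlier results of these data known. A single gene counts as reversed under an alternative only where its difference was at least 1.5-fold. Python 3.11.15, numpy 2.4.6, pandas 2.3.3 and scipy 1.17.1 were used, and the calculation was tested on simulated data.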

Additional observations from a re-analysis of the deposited data

How the results depend on the processing

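No paired analysis was possible because each group held 1 array and no result comes from a test. The 23 genes higher with shRNA4 and 29 higher with shRNA6 became 45 and 44 with a minimum of 200, 1208 and 949 with no minimum and 14 and 17 with both arrays above 400. With a minimum of 800, 19 were higher with shRNA6. At 1.5-fold there were 172 and 183, and at 3-fold 7 and 3. Scaling to equal medians shifted all genes by -0.06 and gave 19 and 42. List medians with that scaling were 0.27 for p53 targets, 0.13 for matrix structure, -0.0177 for matrix remodelling (reversed), 0.0198 for small RNA machinery, 0.0402 for death receptor genes, 0.0109 for immediate-early genes, -0.35 for ERK output, -0.11 for cell cycle, -0.0546 for the stress response and -0.0515 for YAP-responsive genes (both reversed), -0.0869 for glycolysis and hypoxia, 0.00296 for state markers and 0.0831 for ribosomal genes. FADD turned to -0.04. Quantile normalization gave ribosomal genes 0.0220. A minimum of 200 gave 0.18 for NF-kB genes and 0.0149 for immediate-early genes. A minimum of 800 gave -0.00042 (reversed) for NF-kB genes, 0.20 for interferon-stimulated genes, -0.0387 (reversed) for the stress response and 0.17 for state markers. With both arrays above 400 the values were 0.13 for NF-kB genes, -0.23 for ERK output, 0.19 for interferon-stimulated genes, -0.0236 (reversed) for the stress response and 0.12 for state markers. Without a minimum they were -0.47 for chemokines, 0.13 for NF-kB genes, 0.30 for interferon-stimulated genes and 0.18 for state markers, and the correlation with HepG2, an alternative chosen after seeing the data, was -0.0498. The median over probe sets gave -0.72 for chemokines, 0.16 for death receptor genes and -0.00632 (reversed) for the stress response. Treating _x_at probe sets like others gave chemokines -0.71. The causes were not tested. Of 1800 single-gene values, over 187 genes, 1788 moved by less than the spread between probe sets of a gene and 12 by more, and none of at least 1.5-fold changed sign. Genes with a mean signal of at most 400 had the widest spread, which the rule of 1 array above 400 widens by selection.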

Other observations

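Annotated microRNA host genes outside the lists were read after their values were seen. MIR100HG was at 2225 with shRNA4, 2865 with shRNA6 and 2788 in PLKO, a log2 difference of -0.36. MIR181A2HG was below the minimum, at 228, 24.8 and 32.4. The median difference by chromosome, over the 23 chromosomes with at least 50 kept genes, ranged from -0.07 on chromosome 7 to 0.07 on chromosome 16.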
